A study of Rattus norvegicus with 2 samples.

Results

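Immediate early genes are the transcripts that cells switch on within minutes of a growth, stress or injury signal, without first making new protein. Mitogen-activated protein kinases (MAPKs), among them ERK, JNK and p38, phosphorylate factors already in the nucleus, and these turn on genes for AP-1, EGR, KLF, MYC and NR4A transcription factors. The same burst makes its own brakes, such as the dual-specificity phosphatases that dephosphorylate MAPKs and the Sprouty and Errfi1 proteins that damp receptor signalling. In liver these genes are known from partial hepatectomy, toxic injury and inflammation. The set described here held 45 genes of these classes. Its members were found as array probes whose RefSeq accession belongs to one of the listed genes, which gave 50 probes for 41 genes, out of 17250 probes for 13667 named genes. No probe was assigned to Fosb, Egr1, Dusp6 or Rgs2, which were not analysed here.

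The samples were livers of Sprague Dawley rats given senecionine, a hepatotoxic pyrrolizidine alkaloid, at 35 mg/kg into the stomach, and livers of Sprague Dawley rats given sodium chloride. Both were taken 36 h after dosing. RNA was measured on 2 one-colour Agilent arrays, 1 for each group, and each array held a mixture of 3 pooled tissue samples of its group. The labels give neither sex nor age. There are thus no replicates and no test, each difference is between 2 arrays, and the error beside a log2 ratio is the scanner software's spot error carried to the ratio, which holds no variation between animals.

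Signals are given relative to each array's 75th percentile of processed intensity, which has the value 1. It lay at 134 intensity units on the senecionine array and 101 on the control array, and 64.1% of spots on the senecionine array and 44.4% on the control array were well above background. A gene counts as measured if a probe of it was called well above background by the scanner software on each array, and the brightest of these is used. The lowest signal called so was 0.0806 on the senecionine array and 0.204 on the control array, so a transcript needed a higher relative signal to be detected in control. Hepatocyte markers were well above background on both arrays for all 8 named genes of that list. Of these, 6 were at least 2-fold lower after senecionine (75%, against 17.7% of all measured genes). Their summed relative signal was 2386 after senecionine and 4398 in control, over all 8 genes. The control array, although labelled liver, also carried neural transcripts: the summed relative signal of 17 neural markers was 5.24 on the senecionine array and 82.7 on the control array, and 12 of them were detected on the senecionine array and 11 on the control array. In whole liver, fewer cells of a type and less RNA per cell cannot be told apart.

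Higher signals after senecionine were common among the immediate early genes. Of 29 measured members, 15 had a signal 2-fold or more higher after senecionine (51.7%, against 11.2% of all 7803 measured genes) and 2 were 2-fold or more lower (6.90%, against 17.7%). The other 12 lay within 2-fold. The members' median log2 ratio, senecionine over control, was 1.02, against -0.14 for all measured genes, and 22 of 29 ratios were above 0 (43.7% of all measured genes). At 4-fold, 9 members were higher, against 2.73% of all measured genes. The stress factor Atf3 had the highest ratio, followed by Ccn2, Gadd45b, Klf6, Myc and Jun, whose order below Atf3 depends on the processing. The 2 lower members were Klf15 and Sgk1. A further 10 of the 41 named members were detected after senecionine but not in control (24.4%, against 19.1% of named genes), and Dusp4 and Zfp36 on neither array. No member was detected on the control array only, which holds for 1.24% of named genes.

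**Figure D1:**
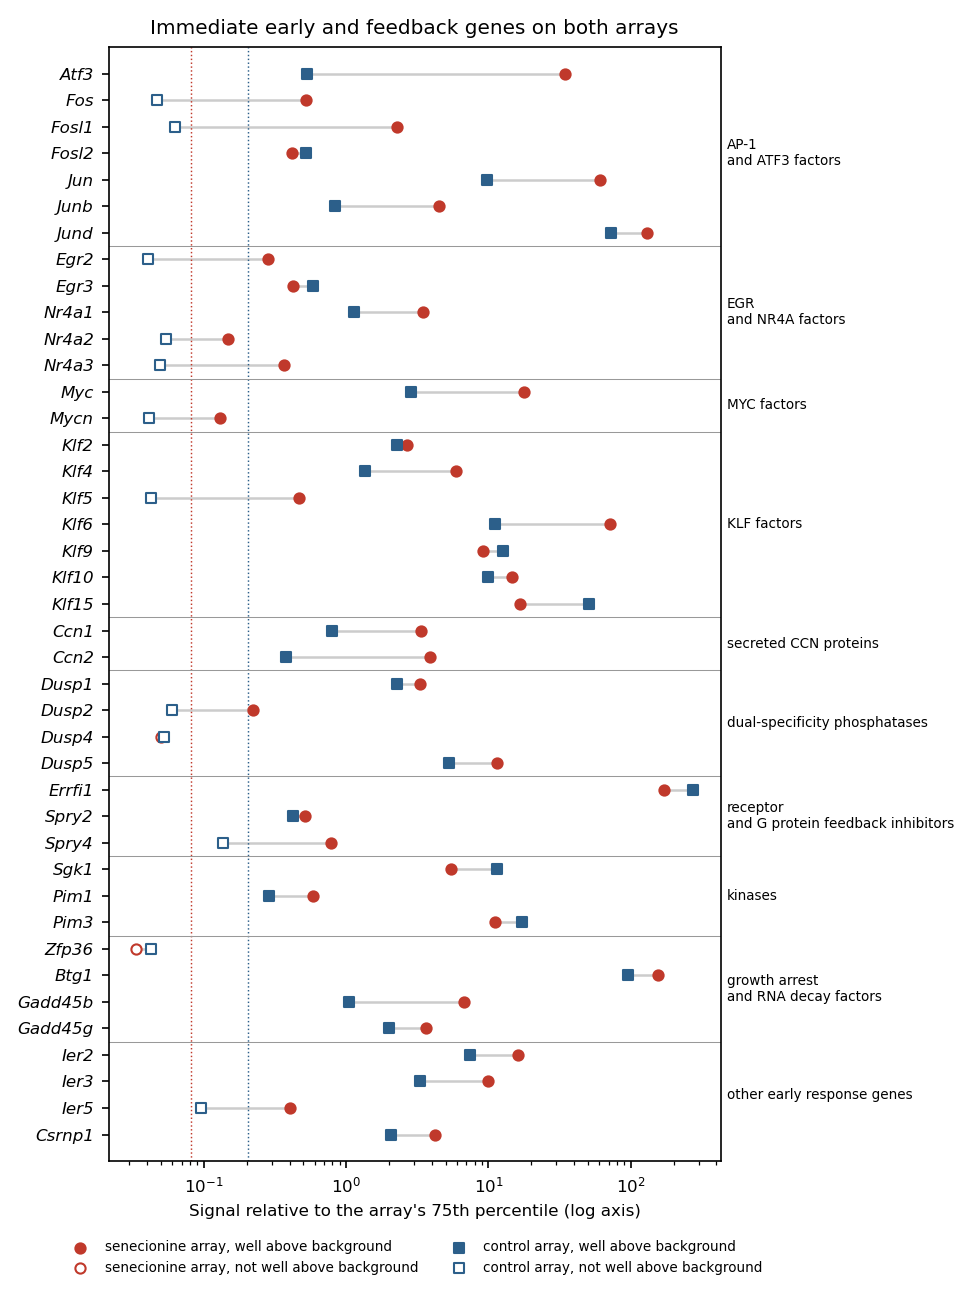
Signal of the 41 named members on the senecionine array (circles) and the control array (squares), relative to each array's 75th percentile, on a log axis and grouped by role; open symbols are not well above background, and the dotted lines mark the lowest signal well above background on each array (0.0806 for senecionine, 0.204 for control). Of the 29 members with both symbols filled, 22 have the senecionine circle to the right, Atf3 with the widest gap.

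**Figure D2:**
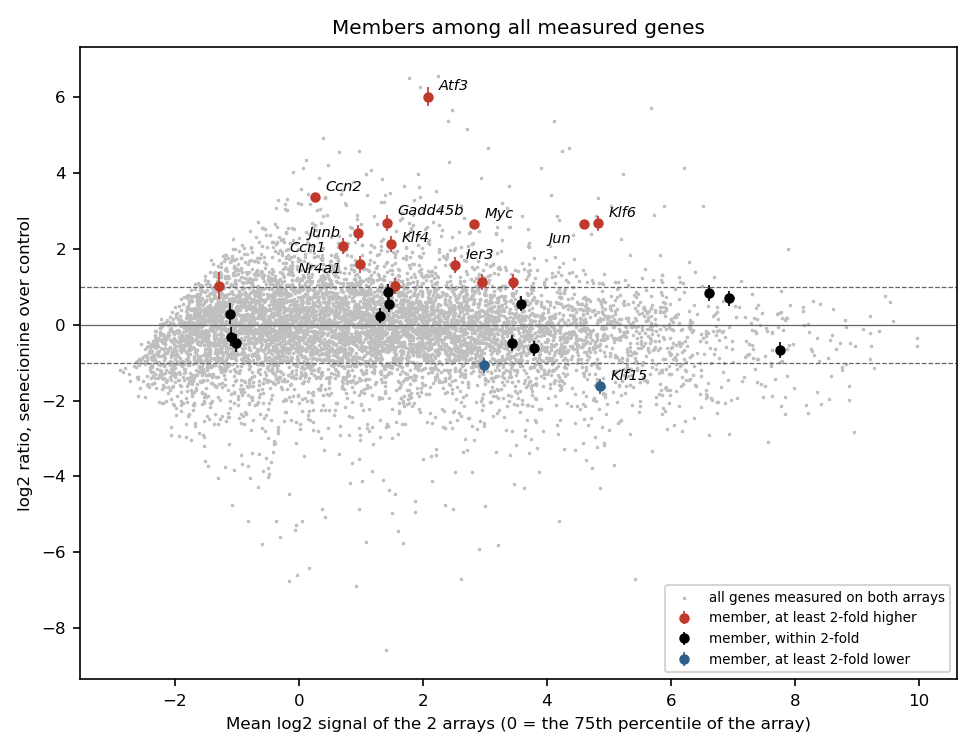
Log2 ratio of senecionine over control against the mean log2 signal of both arrays, for all 7803 measured genes (grey) and the 29 measured members (red at least 2-fold higher, black within 2-fold, blue at least 2-fold lower, with the spot error as bars); dashed lines mark 2-fold. Of the members, 15 lie at or above the upper line and 2 at or below the lower line.

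To set the members' values beside their promoters, the 250 bases before the RefSeq gene start (build GRCr8) were searched on both strands for sites of the factors that MAPKs act on. RefSeq's table gave 36 windows for 33 of the 45 members, and the shares below are of these 33. Atf3, Fos, Jun, Myc, Mycn, Egr3, Nr4a3, Klf2, Klf10, Ier3, Csrnp1 and Dusp4 had no window. The CArG box, bound by serum response factor (SRF), was matched in 5 of the 33 members (15.2%), namely Dusp5, Egr1, Egr2, Klf6 and Zfp36, against 1.5% of all 33469 windows. The cyclic AMP response element (CRE) TGACGTCA, which ATF and CREB proteins bind, was matched in Dusp1, Ier2 and Jund (9.09% of members, 1.59% of windows). The AP-1 site TGANTCA was matched in Klf9 alone (3.03%, against 6.34%), and the EGR site GCGTGGGCG in Jund alone (3.03%, against 0.478%). The MYC-type E-box CACGTG was matched in 6 members (18.2%, against 5.59%), namely Dusp1, Dusp2, Gadd45b, Gadd45g, Klf15 and Klf6. None of these matches overlaps another of a different motif. A match describes the letters in this window, not binding.

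The windows below are those of the measured members with a CArG box or a CRE, which stand in capitals. They are shown so that each site can be read beside its gene's ratio, given below. The measured genes with a CArG box, Klf6 and Dusp5, were at least 2-fold higher after senecionine. The other members with a CArG box were not measured on both arrays. Egr2 had a bound of only 1.39-fold, Zfp36 was at background on both arrays and Egr1 had no probe. Of the genes with a CRE, Ier2 was at least 2-fold higher and Jund and Dusp1 were not. Dusp5, Ier2 and Jund change sides with the scaling.
Klf6, chr17:69458479-69458728, minus strand: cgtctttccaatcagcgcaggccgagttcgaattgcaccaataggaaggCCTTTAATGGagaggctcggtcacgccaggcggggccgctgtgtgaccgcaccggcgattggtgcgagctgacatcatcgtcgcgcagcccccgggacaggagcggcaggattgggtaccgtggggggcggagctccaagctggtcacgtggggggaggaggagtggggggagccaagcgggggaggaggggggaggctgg
Dusp5, chr1:262543524-262543773, plus strand: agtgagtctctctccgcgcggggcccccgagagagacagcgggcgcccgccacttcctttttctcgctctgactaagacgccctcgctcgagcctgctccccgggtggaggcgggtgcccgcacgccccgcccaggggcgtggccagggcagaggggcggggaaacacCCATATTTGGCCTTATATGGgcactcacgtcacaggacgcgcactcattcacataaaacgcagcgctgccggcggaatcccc
Ier2, chr19:40399123-40399372, plus strand: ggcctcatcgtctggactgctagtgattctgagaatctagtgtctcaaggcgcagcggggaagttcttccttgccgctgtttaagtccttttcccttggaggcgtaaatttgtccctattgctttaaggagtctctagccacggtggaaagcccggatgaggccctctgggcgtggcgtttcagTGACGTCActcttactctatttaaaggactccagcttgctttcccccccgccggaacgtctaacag
Jund, chr16:18769772-18770021, minus strand: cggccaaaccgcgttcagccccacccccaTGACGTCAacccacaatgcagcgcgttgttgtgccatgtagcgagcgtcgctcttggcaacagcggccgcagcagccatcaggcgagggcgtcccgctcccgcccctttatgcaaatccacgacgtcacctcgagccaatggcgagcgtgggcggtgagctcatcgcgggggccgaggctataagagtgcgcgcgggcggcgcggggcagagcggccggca
Dusp1, chr10:17184603-17184852, plus strand: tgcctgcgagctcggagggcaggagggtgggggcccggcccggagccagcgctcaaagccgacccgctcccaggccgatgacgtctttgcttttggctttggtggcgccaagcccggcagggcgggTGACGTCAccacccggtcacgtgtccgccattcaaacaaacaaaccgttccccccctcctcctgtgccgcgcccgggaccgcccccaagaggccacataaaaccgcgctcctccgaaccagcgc
Dusp5 holds a tandem pair of CArG boxes, 82 to 73 and 72 to 63 bases before the start, and Klf6 a single one 201 to 192 bases before it. The CRE lies 66 to 59 bases before the start in Ier2, 124 to 117 in Dusp1 and 221 to 214 in Jund.

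AP-1 is a dimer of a JUN protein with a FOS or ATF partner, and several of its parts were higher after senecionine. Atf3, a stress-induced member of the ATF/CREB family that mostly represses, had a relative signal of 34.3 on the senecionine array, against 0.528 on the control array. That is 65.1-fold higher (log2 ratio 6.02 ± 0.24, spot error), rank 4 from the top among the 7803 measured genes. Jun, the JNK substrate at the centre of AP-1, had 61.0 on the senecionine array and 9.71 on the control array, 6.28-fold higher (2.65 ± 0.07). Junb, an early gene that often restrains proliferation, had 4.48 after senecionine and 0.840 in control, 5.34-fold higher (2.42 ± 0.22). Jund, the member that most resting tissues express, had 131 after senecionine and 73.0 in control, a log2 ratio of 0.84 ± 0.20 that lies under 2-fold. Its dimmer probe gave 0.89, and its ratio passed 2-fold with quantile normalization, cyclic loess, normexp correction or no scaling, at up to 1.34.

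Of the FOS family, Fosl1 and Fos were undetected in control and Fosl2 was measured on both arrays. Fosl1, the FOS-related antigen known from migrating and injured cells, had 2.27 after senecionine and 0.0628 in control, under the detection call there, which makes it at least 11.1-fold higher. Fos, the prototype of the serum-induced early genes, had 0.520 after senecionine and 0.0471 in control, also undetected there, and was at least 2.55-fold higher. These bounds set the senecionine signal against the lowest signal well above background on the control array. Fosl2, which forms stable AP-1 dimers, had 0.419 after senecionine and 0.521 in control (-0.31 ± 0.24), about its spot error from 0, and turned to 0.09 without scaling. Within this family Atf3, Jun, Junb, Fosl1 and Fos were thus 2-fold or more higher after senecionine, counting bounds, and Jund and Fosl2 were within 2-fold.

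EGR and NR4A genes encode DNA-binding factors that respond to growth factors, depolarisation and inflammation. Nr4a1, an orphan nuclear receptor that modulates glucose metabolism in liver, had 3.44 after senecionine and 1.14 in control, 3.01-fold higher (1.59 ± 0.22). Egr3, a zinc finger factor known from muscle spindles, lymphocytes and neurons, had 0.420 after senecionine and 0.582 in control (-0.47 ± 0.23), within 2-fold. Egr2, known from myelination and lymphocytes, had 0.283 after senecionine and 0.0407 in control and was at least 1.39-fold higher. Nr4a3, an orphan receptor of the Nr4a1 family, had 0.363 after senecionine and 0.0490 in control, at least 1.78-fold higher. Nr4a2, known for its role in dopamine neurons, was near the floor at 0.148 after senecionine and 0.0540 in control, and no fold is given. Of the 5 named genes of this class, only Nr4a1 and Egr3 were measured on both arrays, and whether Egr2, Nr4a2 and Nr4a3, undetected in control, were past 2-fold is not known.

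Myc, the proliferation and biosynthesis factor that liver turns on after resection, had 17.9 after senecionine and 2.84 in control, 6.29-fold higher (2.65 ± 0.06). Its relative Mycn, best known from embryonic and neural tissue, had 0.130 after senecionine on its brighter probe and 0.0414 in control, undetected there. That value is below the control array's floor, and no fold is given. Among the partners that bind with or against MYC, none of the 4 measured genes was past 2-fold (median log2 ratio -0.22), from -0.64 ± 0.20 for Mlx to 0.40 ± 0.23 for Mxi1.

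KLF factors, zinc finger proteins that bind GC-rich promoters, went both ways. Klf6, known from activated hepatic stellate cells, had 71.6 after senecionine and 11.2 in control, 6.41-fold higher (2.68 ± 0.20), and its other probe gave a log2 ratio of 3.39. Klf4, a factor of endothelium, epithelium and macrophages, had 5.89 after senecionine and 1.35 in control, 4.37-fold higher (2.13 ± 0.21). Klf5, an epithelial proliferation factor, had 0.464 after senecionine and 0.0426 in control, where it was undetected, at least 2.28-fold higher. Its dimmer probe had 0.170 after senecionine, under the control array's floor of 0.204. Klf15, which drives amino acid catabolism and gluconeogenesis in liver, had 16.5 after senecionine and 51.1 in control, 3.09-fold lower (-1.63 ± 0.20). It had the lowest ratio of all measured members.

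The remaining 3 KLF members lay within 2-fold on the probe used. Klf9, a factor induced by glucocorticoids and thyroid hormone, had 9.16 after senecionine and 12.7 in control (-0.48 ± 0.20). Its other probe disagreed, with 1.34 after senecionine and 4.25 in control (-1.67 ± 0.21), so the side of the 2-fold line depends on the probe. Klf10, an early target of TGF-beta, had 14.5 after senecionine and 9.86 in control (0.56 ± 0.20), with 0.37 on the other probe. Klf2, the flow-induced endothelial factor, had 2.70 after senecionine and 2.28 in control (0.24 ± 0.21), about its spot error from 0. Among 5 measured KLF and SP relatives outside the set, 2 were lower, Klf11 (3.02-fold) and Klf16 (2.41-fold), and Sp1 was 2.38-fold higher, although its other probes gave 0.08 and 0.14.

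Both secreted CCN proteins, matrix-associated signals that SRF and YAP turn on in stretched or wounded tissue, were higher after senecionine. Ccn2, also called connective tissue growth factor, had 3.87 after senecionine and 0.376 in control, 10.3-fold higher (3.36 ± 0.09). Ccn1 had 3.38 after senecionine and 0.798 in control, 4.24-fold higher (2.08 ± 0.22), and its dimmer probe was detected after senecionine only. Among the measured members only Atf3 had a higher ratio than Ccn2. With normexp background correction, whose offset of 50 compresses dim signals, Ccn2 had a log2 ratio of 2.19, Gadd45b 1.87 and Atf3 5.32. Klf6 (2.84), Jun (2.75) and Myc (2.50) then had higher ratios than Ccn2, so the order below Atf3 depends on the processing.

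Jun, Myc and Ccn2 were each printed repeatedly on the array, which shows the technical spread directly. The 9 spots of Jun on the senecionine array ran from 55.9 to 65.2 with a median of 61.1, and its 10 spots on the control array from 7.67 to 11.0 with a median of 10.1. Myc ran from 16.4 to 19.6 over 10 spots after senecionine (median 17.9) and from 2.50 to 3.02 over 10 spots in control (median 2.93). Ccn2 ran from 3.50 to 4.12 over 9 spots after senecionine (median 3.86) and from 0.349 to 0.414 over 8 spots in control (median 0.382). The spots of the arrays did not overlap for any of the 3 genes. The dimmest senecionine spot was 5.07-fold above the brightest control spot for Jun, 5.43-fold for Myc and 8.47-fold for Ccn2, and the spots of 1 array had a log2 SD between 0.07 and 0.16. Repeated spots share 1 labelled RNA, so they say nothing of animals.

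**Figure D3:**
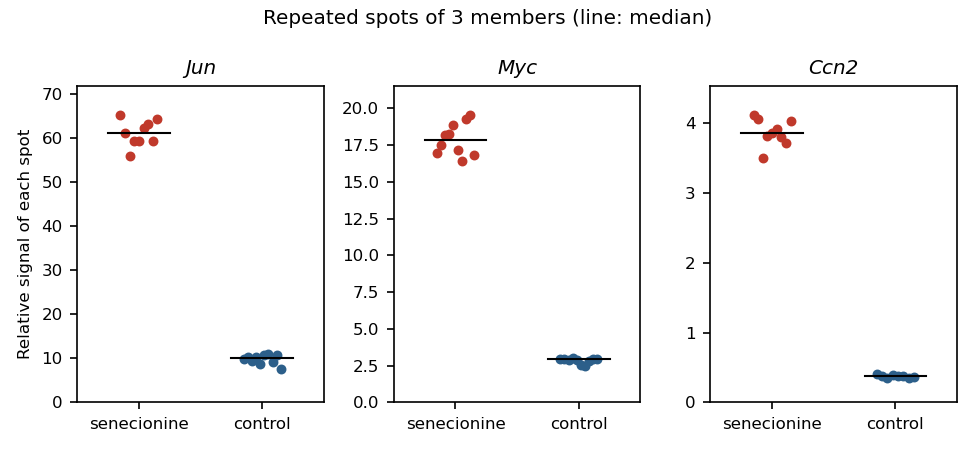
Relative signal (1 is the array's 75th percentile) of each unflagged spot of Jun, Myc and Ccn2 on the senecionine array (left in each panel) and the control array (right), with the median as a line and all axes starting at 0. In each panel all senecionine spots lie above all control spots.

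Of the 4 measured genes that encode phosphatases or receptor inhibitors, Dusp5 alone was past 2-fold. Dusp5, a nuclear phosphatase specific for ERK, had 11.5 after senecionine and 5.26 in control, 2.18-fold higher (1.12 ± 0.20). Dusp1, the nuclear phosphatase of p38 and JNK, had 3.31 after senecionine and 2.27 in control (0.54 ± 0.21), within 2-fold. Dusp2, an immune cell phosphatase, had 0.223 after senecionine and 0.0595 in control, where it was undetected, at least 1.09-fold higher. Dusp4, an ERK-induced nuclear phosphatase, was at background on both arrays (0.0499 after senecionine, 0.0525 in control). For Dusp2 and Dusp4 the side of the 2-fold line is not known. Outside the set, 1 of 5 measured phosphatase relatives was past 2-fold, Dusp16, a phosphatase of JNK and p38, at 2.57-fold higher.

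Inhibitors of receptor signalling had no common direction in the values used here. Errfi1, which binds and blocks the EGF receptor, gave 172 after senecionine and 274 in control (-0.67 ± 0.20). Its ratio was -0.13 with quantile normalization and -0.12 with normexp correction, within its spot error of 0. Spry2, a Sprouty inhibitor of receptor tyrosine kinase signalling to ERK, had 0.516 after senecionine and 0.421 in control (0.29 ± 0.27), about its spot error from 0. Spry4, another Sprouty protein, had 0.781 after senecionine and 0.136 in control on its brighter probe. It was undetected in control and at least 3.82-fold higher. Its other probe was undetected on both arrays (0.0703 after senecionine, 0.0405 in control). Thus 0 of the 2 measured inhibitors were past 2-fold, and 1 more had a bound above it.

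Of 3 kinases in the set, 1 was higher and 1 lower past 2-fold. Pim1, a survival kinase induced by cytokines through STAT factors, had 0.585 after senecionine and 0.285 in control, 2.05-fold higher (1.04 ± 0.35). Pim3, its relative, had 11.2 after senecionine and 17.3 in control (-0.63 ± 0.20), within 2-fold. Sgk1, the serum- and glucocorticoid-regulated kinase, had 5.49 after senecionine and 11.6 in control, 2.11-fold lower (-1.07 ± 0.20). Pim1 and Sgk1 lie close to the 2-fold line. Pim1 lay inside it with median scaling, cyclic loess or normexp correction (down to 0.62), and Sgk1 with quantile normalization, cyclic loess or no scaling (-0.67).

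Among growth arrest and RNA decay factors, Gadd45b, which activates a MAPK kinase kinase upstream of p38 and JNK, had 6.78 after senecionine and 1.05 in control, 6.46-fold higher (2.69 ± 0.21). Gadd45g, of the same family, had 3.65 after senecionine and 1.996 in control (0.87 ± 0.21), within 2-fold, but past it without scaling (1.28). Btg1, an antiproliferative protein that recruits the deadenylase complex, had 156 after senecionine and 96.2 in control (0.70 ± 0.20), also within 2-fold, but past it with quantile normalization, cyclic loess, normexp correction or no scaling (up to 1.12 with quantile normalization). Zfp36, the tristetraprolin protein that destabilises cytokine mRNAs, was at background on both arrays on its 1 probe (0.0335 after senecionine, 0.0428 in control). The ratios of the 3 measured genes were all above 0, and Gadd45b alone was past 2-fold.

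The 3 measured genes among the other early response genes were all higher after senecionine. Ier3, a survival protein induced by NF-kappaB and p53, had 9.93 after senecionine and 3.33 in control, 2.98-fold higher (1.58 ± 0.20). Ier2, a nuclear early gene, had 16.1 after senecionine and 7.40 in control, 2.18-fold higher (1.12 ± 0.20). Csrnp1, a nuclear factor induced by AXIN, had 4.18 after senecionine and 2.06 in control, 2.03-fold higher (1.02 ± 0.21), the closest to the 2-fold line of all members called higher. Ier5, a partner of heat shock factor, had 0.401 after senecionine and 0.0959 in control, where it was undetected, at least 1.96-fold higher. With median scaling, Ier2 and Dusp5 reached 1.00 just under the line, and Csrnp1 lay at 0.89.

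Of the 10 members detected after senecionine alone only a bound can be given. It was at least 2-fold for 4 of them (40%, against 12.2% of the 2610 genes detected in that way), namely Fosl1, Spry4, Fos and Klf5. The bound uses each gene's brightest probe on the senecionine array. The dimmer probe of Spry4 was undetected on both arrays, and that of Klf5 lay under the control array's floor. For Ier5, Nr4a3, Egr2 and Dusp2 the bound lay between 1.09 and 1.96, and for Nr4a2 and Mycn it fell under 1. The higher floor of the control array limits all of these.

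The MAPK cascade itself had shares near those of all measured genes. Of 24 measured genes of its receptors, adaptors and kinases, 4 were at least 2-fold higher (16.7%, against 11.2% of all measured genes) and 3 lower (12.5%, against 17.7%), with a median log2 ratio of -0.16 (-0.14 for all). Map2k1, the kinase of ERK also called MEK, was 2.45-fold higher. Erbb3, a partner of the EGF receptor, was 2.48-fold lower. Among 4 measured genes of SRF and its cofactors, Elk3, a ternary complex factor, was 2.01-fold higher, and Srf had a log2 ratio of 0.49 ± 0.20. Nab1, a corepressor of EGR proteins, gave 0.42 on one probe and -1.30 on another.

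Of 12 measured AP-1 and ATF relatives, 1 was past 2-fold (8.33%, against 11.2% of all measured genes), the stress factor Ddit3, at 3.27-fold higher, and the median log2 ratio was 0.39. Batf and the liver factor Cebpb had 0.97 ± 0.29 and 0.87 ± 0.07, just inside the line. Of 13 measured relatives of the growth arrest, kinase and RNA decay genes, 2 were higher (15.4%) and 3 lower (23.1%, against 17.7% of all measured genes). Gadd45a, a p53 target, was 9.73-fold higher and the antiproliferative p53 target Btg2 8.82-fold higher, and the kinase Sgk2 was 3.84-fold and the antiproliferative Tob1 2.82-fold lower. Tob1 was near the floor of both arrays, with 0.0901 after senecionine and 0.254 in control. Of the feedback inhibitor relatives only 2 were measured on both arrays, with Rgs4, which shortens G protein signals, 7.04-fold higher.

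Delayed response genes, which growth signals turn on after the early factors, were higher in 4 of 11 measured cases (36.4%, against 11.2% of all measured genes) and lower in 1 (9.09%, against 17.7%). Phlda1, a regulator of receptor signalling and survival, was 5.16-fold higher, Odc1, the first enzyme of polyamine synthesis, 3.93-fold and the p53 target Phlda3 2.91-fold higher. Arc, known as a neuronal early gene, was 3.75-fold lower. A further 8 of the 22 named genes of this list were detected on the senecionine array only (36.4%, against 19.1% of named genes), 5 with a bound of at least 2-fold. Over all these related lists together, 15 of 79 measured genes were higher (19.0%) and 9 lower (11.4%).

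**Figure D4:**
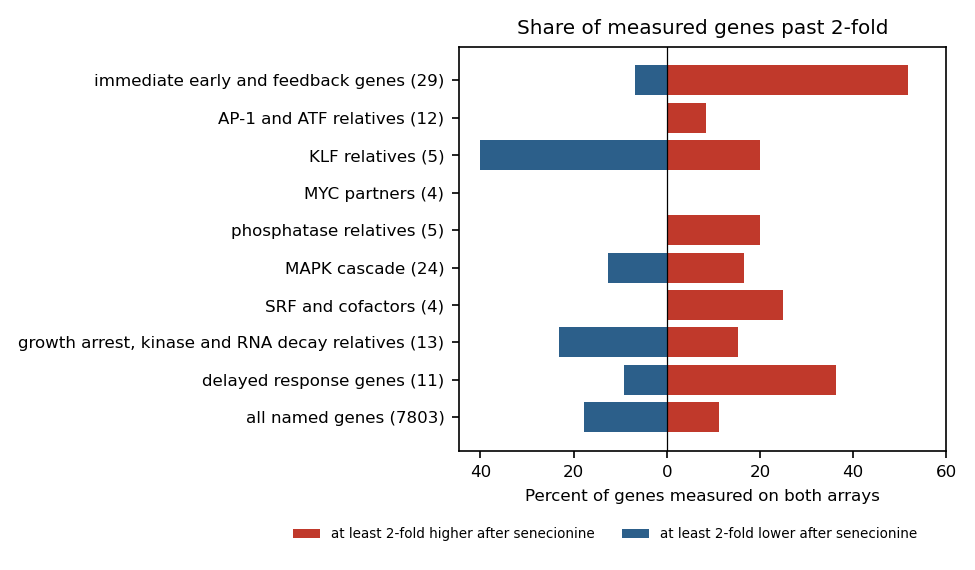
Percent of genes measured on both arrays that were at least 2-fold higher (red, to the right) or lower (blue, to the left) after senecionine, for the 29 measured members, each related list with at least 4 measured genes (number in brackets) and all 7803 measured genes. The members reach 51.7% higher and 6.90% lower, against 11.2% and 17.7% of all measured genes.

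Many of these early genes are active in more than one liver cell type, and markers of other cells moved between the arrays too. For the counts in this paragraph and the next, 11.2% of all measured genes were at least 2-fold higher and 17.7% lower. Neutrophil markers were well above background for 9 of 9 named genes after senecionine and 5 of 9 in control, with summed relative signals of 446 after senecionine and 11.4 in control. Most of both sums was Lcn2, with 374 after senecionine and 7.10 in control. Of 5 measured, 3 were higher and 1 lower: S100a9 was 92.2-fold, S100a8 77.4-fold and Lcn2, which injured hepatocytes also make, 52.7-fold higher, and Prtn3 2.53-fold lower. Csf3r, Cxcr2, Elane and Itgam were undetected in control. Of 8 measured macrophage markers 2 were higher and 3 lower, with sums of 127 after senecionine and 157 in control. Gpnmb was 12.6-fold higher and the Kupffer cell lectin Clec4f 8.98-fold lower. The scavenger receptor Cd163 was at background on both arrays.

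Sinusoidal endothelial markers were lower in 4 of 6 measured cases and higher in none, with sums of 39.6 after senecionine and 115 in control. Cdh5 went the other way, as it was detected after senecionine only, and Pecam1 and Tek were at background on both arrays. For stellate cells and fibroblasts, 3 of 10 measured markers were higher and 1 lower, with sums of 164 after senecionine and 245 in control. Bile duct markers were higher in 3 of 4, with sums of 43.7 after senecionine and 3.27 in control, and Cftr was at background on both arrays. The higher genes were Krt8 (8.73-fold), Epcam (5.83-fold) and Krt19 (3.15-fold). Krt8, a keratin not particular to bile ducts, had 18.2 after senecionine and 2.08 in control, a large part of both sums. Most of the rest of the senecionine sum was Spp1, detected after senecionine only, with a bound of at least 2-fold. Lymphocyte markers were higher in 2 of 4, with sums of 6.52 after senecionine and 3.86 in control, and Cd4 and Cd2 were at background on both arrays. Neural markers, present on the control array, were lower in 8 of 9 measured cases, with Mbp 86.1-fold lower, and Stmn2, Gad1 and Slc17a7 were at background on both. The part of these cell types and of the neural transcripts in the members' values was not tested.

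The authors' deposited table, a list of probes at least 2-fold apart, held 21 of the 41 named members, 19 of them higher after senecionine and 2 lower. For comparison, 13.2% of all named probes were higher in the authors' deposited table and 9.48% lower. These shares are of probes, whereas the members were counted as genes with any listed probe. Of the members' 50 probes, 23 were listed. By the authors' deposited table, Jund was 2.31-fold and Btg1 2.07-fold higher, both within 2-fold here. The authors' deposited table listed Ier5 at 3.83-fold and Spry4 at 5.71-fold higher, which had only a bound here. Its 2 lower members were Klf15 (log2 difference -1.31 in the authors' deposited table) and Klf9, by the dimmer of its probes (-1.62 in the authors' deposited table).

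**Figure D5:**
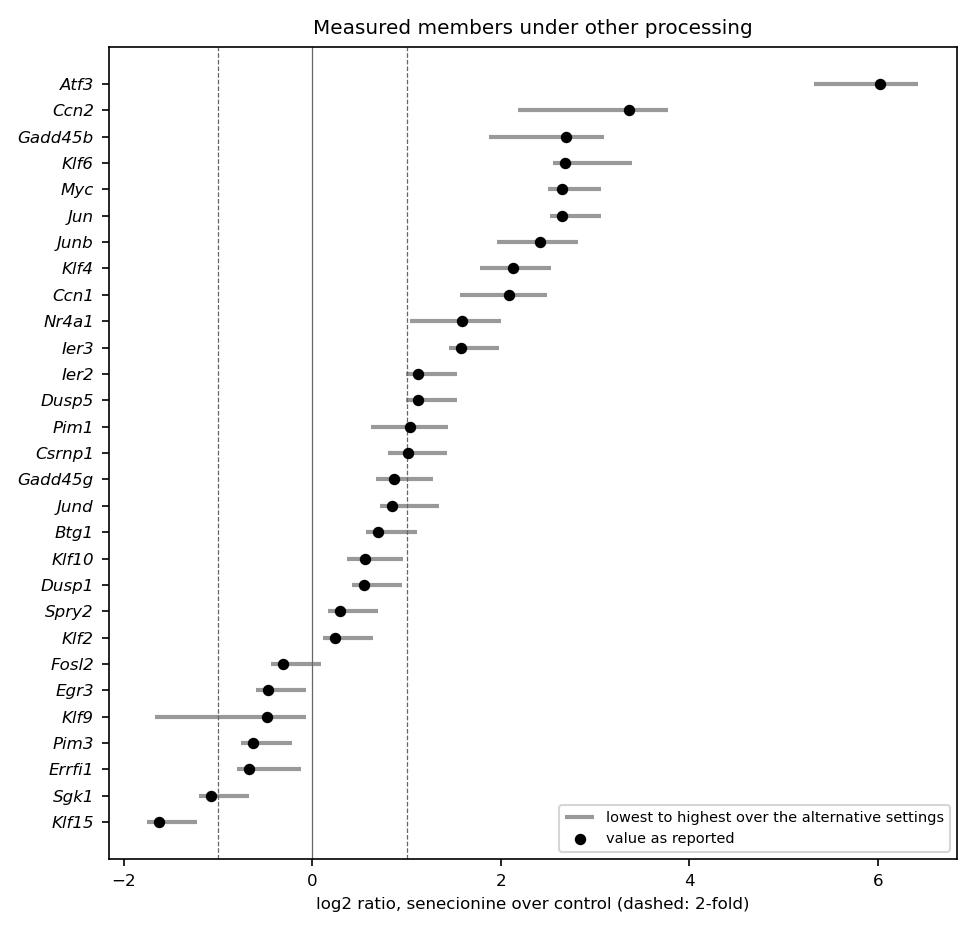
Log2 ratio of senecionine over control for the 29 measured members as reported (points), with the lowest and highest value over the other scalings, corrections, probe rules and filters and the authors' values (grey lines); dashed lines mark 2-fold. The lines of 12 of the 17 members past 2-fold stay on the same side, and those of Dusp5, Ier2, Pim1, Csrnp1 and Sgk1 reach inside.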

How the data were processed

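Liver RNA of pooled samples was measured on 2 one-colour arrays. The authors ran Agilent Feature Extraction 10.7.3.1 on the scans (named in the submitters' processing notes), and per the file headers the deposited intensity values are background-subtracted and detrended within each array, with a spot error and no scaling from array to array. The authors' deposited table holds log2 values of 7404 probes, with column medians of 6.10 for senecionine and 6.03 for control, with unstated scaling and centring. The smallest log2 difference in it is 1.00, and in all 7355 probes compared its sign was that of the scanner values (r = 0.994 across probes, which are not replicates). Both sets of values come from the same 2 arrays, and smaller differences are left out of that table. A different sign was therefore hardly possible, and the shared sign is no independent support.

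Here the log2 processed intensity minus each array's 75th percentile was used, with spots of 1 probe averaged on the log2 scale and control spots and outlier-flagged spots left out (497 on the senecionine array, 522 on the control array; none was saturated). That left 40516 probes, of which 17250 were named through their unversioned accession in RefSeq's genes (GRCr8). A probe with several spots was detected where most were well above background. No test was made, genes were counted at 2-fold, and the fold of a gene dim on 1 array is a bound against the higher of its own signal and that array's lowest signal well above background. The median spot error was 0.21 over all measured genes and 0.20 over members. Precision is limited by having 1 array per group. The counting was tested on simulated data. Groups came from the sample titles.

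Members and lists were chosen with earlier results of these data known. All named members are given, and of each related or marker list at most the 4 genes with the largest absolute ratio, beside genes named to show which markers were at background. Some genes of these lists are not reported here by name. Maff and Zfp36l1 stand in 2 related lists and were counted once in the total. The array was designed on another build (rn4), so only promoter windows have coordinates. Alternatives were other scalings, normexp correction (on median spot signals, as the files give no mean signals), other probe rules, filters and fold thresholds, and the authors' values. The normalizations ran in limma 3.58.1 under R 4.3.3, and all else in Python 3.11.15 with pandas 2.3.3, numpy 2.4.6 and, for plots, matplotlib 3.10.9.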

Additional observations from a re-analysis of the deposited data

How the results depend on the processing

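The 15 members at least 2-fold higher after senecionine became 25 when detection on 1 array was enough or not asked for, and 9 at 4-fold. With all other settings the number of higher members was between 11 (median scaling) and 19 (the authors' values). These 19 include Ier5 and Spry4, which were not measured on both arrays here. The share of all genes that were higher moved too. From 11.2% it became 22.6% with detection on 1 array, 17.5% with no filter and 2.73% at 4-fold. With median scaling it was 9.11%, and without scaling 20.8%. The 2 lower members became 1 with quantile normalization, cyclic loess or no scaling, 3 with the mean of probes or the dimmest probe (which adds Klf9), 4 at 1.5-fold and 0 at 4-fold. The share of all genes that were lower, 17.7%, became 16.4% with quantile normalization, 16.8% with cyclic loess and 10.1% without scaling. The 12 within 2-fold became 7 at 1.5-fold and 20 at 4-fold. The median log2 ratio of 1.02 became 1.43 without scaling, 1.58 with detection on 1 array and 1.45 with no filter, and stayed between 0.89 and 1.12 otherwise. These moves follow from the settings' construction, since genes at background on the control array enter without the filter and the whole array shifts without scaling. The median of all measured genes moved by -0.13 with median scaling, 0.41 without scaling, 0.11 with normexp correction and 0.23 with detection on 1 array. The share of higher genes among all past 2-fold, 38.8%, became 67.3% without scaling and 60.5% with detection on 1 array. Counted at 2-fold, 12 of the 17 called members kept their call under each scaling, correction, probe rule and filter that gave them a value, and none of the 17 changed sign. Of 337 recomputed ratios, 74 moved by more than the spot error. Many of the others could not move. The detection filters left the value of each measured member as it was. The probe rules changed only Jund, Klf6, Klf9 and Klf10, which had another measured probe. For the other members, a call kept under these settings is no sign of stability. The authors' table is limited to probes past 2-fold, so it gave no median and no count within 2-fold. No paired analysis was possible because each group was 1 array. Signal over background on the control array limits Fos, Fosl1, Nr4a2, Nr4a3, Egr2, Mycn, Klf5, Dusp2, Ier5 and Spry4 to bounds.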

Other observations

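Members of the same family differed in size and direction. In the GADD45 family the log2 ratio was 3.28 ± 0.21 for Gadd45a, 2.69 ± 0.21 for Gadd45b and 0.87 ± 0.21 for Gadd45g. Among the antiproliferative BTG and TOB genes, Btg2 had 3.14 ± 0.20, Btg1 0.70 ± 0.20 and Tob1 -1.49 ± 0.43. The Tob1 ratio is from signals near the floor of both arrays (0.0901 after senecionine, 0.254 in control). The kinases Sgk1 and Sgk2 were both lower after senecionine, at -1.07 ± 0.20 and -1.94 ± 0.20. Klf15, Klf11 and Klf16 were lower at -1.63, -1.60 and -1.27, and Klf6 and Klf4 higher at 2.68 and 2.13. These pairs were put side by side after their values were seen.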
